A study of Mus musculus with 6 samples.

Results

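DNA replication and mitosis genes were followed in tibialis anterior, a leg muscle, of mice that lack Prmt7, a protein arginine methyltransferase. The group held 50 genes, chosen by symbol for their known roles in the cell cycle, with earlier results of these data known. All 50 were among the 14617 genes listed in the deposited comparison. Of the 50, 9 act in S phase by the rule used here (Mcm2 to Mcm7, Pcna, Rrm1 and Rrm2) and 29 act in mitosis. The other 12 are further S phase genes, G1/S regulators and transcription factors. The knockout (KO) mice carried the genotype PRMT7-/- and the wild-type (WT) mice PRMT7+/+. Both groups were C57BL/6 and 8 months old, with no other allele or agent named in the labels. The labels name 3 mice per genotype, and RNA was taken from whole frozen muscle. The sources used here do not give the sex of the mice, how the null allele was made or which exons it lacks.

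Values are normalized read counts, meaning counts divided by a size factor per library. The deposited means per genotype came apart exactly into the counts of 2 libraries each, called KO libraries 1 and 2 and WT libraries 1 and 2. No mouse number can be given to a library, and the p-values cover the spread of these libraries alone. No header of the deposited columns names a genotype. They were read as KO or WT from the name of the table, and all directions given here depend on that. The libraries held 22629288 to 24814798 counts. Prmt7 itself had 706 and 718 normalized counts in KO libraries 1 and 2, against 885 and 844 in WT libraries 1 and 2, with an FDR of 0.587 in the authors' deposited table. Without the deleted exons, a count over the whole gene does not check the labels. Xist, the RNA that coats the inactive X chromosome, had 1.82 and 1.03 normalized counts in the KO libraries, against 10800 and 11546 in the WT libraries. Transcripts of the Y-linked gene Ddx3y were counted in KO library 2 only, at 2824, against 0 in the other 3 libraries. Genotype and the Xist signal cannot be told apart, whereas the Y-linked signal split the KO libraries. None of the 50 genes (0) lies on X or Y. All 8 muscle fibre markers were listed, with sums of 3159410 and 3615550 normalized counts in the KO libraries, against 2494970 and 2977430 in the WT libraries. Of these 8, 5 overlapped between genotypes, and 1 (Myh4, a fast fibre myosin) was called higher by the FDR of the authors' deposited table.

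A dividing cell copies its DNA in S phase, when the MCM helicase opens the double helix, PCNA holds the polymerases on the template and ribonucleotide reductase makes the deoxynucleotides. It then enters mitosis under CDK1 and cyclin B, lines its chromosomes up on a spindle that the kinetochore checkpoint watches, and splits by cytokinesis. These waves of genes are switched by different factors: E2F proteins act on G1/S promoters, whereas the MuvB complex with B-MYB and FOXM1 acts on mitotic promoters through the cell cycle genes homology region (CHR). The nuclei of adult muscle fibres have left the cell cycle, whereas cells between the fibres can divide, such as satellite cells, fibroblast-like, endothelial and immune cells. Which cells the members' transcripts came from was not tested. In whole tissue, more cells of a type and more RNA per cell cannot be told apart.

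The promoters of the members carried the letters of both switches, and they are shown first. The S phase and mitosis genes differed in these letters and in their ratios, and a link between letters and ratios was not tested. RefSeq promoters (GRCm38.p6, from 250 bases before the start to 50 bases from the start on) were matched to 38 of the 50 members and to 10161 of the listed genes. The following motifs were searched on both strands: the CHR as TTTGAA or TTCGAA, the CCAAT box as CCAAT, and E2F as TTT, then a pair of letters that are each C or G, then CGC. The CHR letters stood in 21 of 25 mitosis promoters (84%), in 2 of 8 S phase promoters (25%) and in 13.5% of all matched promoters. The E2F letters stood in 3 of 25 mitosis promoters (12%), in 4 of 8 S phase promoters (50%) and in 3.87% of all. The CCAAT letters stood in 22 of 25 mitosis promoters (88%), in 8 of 8 S phase promoters (100%) and in 38.3% of all. A match is a description and not a binding site, and a missing match says only that the letters are not in this window. Other spellings of these motifs were not searched.

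A pair of S phase promoters and 5 mitosis promoters show the difference in letters, each as the 200 bases before the RefSeq start, 5′ to 3′ on the strand of the gene, with matches in capitals. They were chosen after the matches were seen. Mcm5 (chr8:75109309-75109508, plus strand) and Mcm6 (chr1:128359706-128359905, minus strand), subunits of the MCM helicase, have E2F and CCAAT letters and no CHR letters in the 300 bases searched.
Mcm5: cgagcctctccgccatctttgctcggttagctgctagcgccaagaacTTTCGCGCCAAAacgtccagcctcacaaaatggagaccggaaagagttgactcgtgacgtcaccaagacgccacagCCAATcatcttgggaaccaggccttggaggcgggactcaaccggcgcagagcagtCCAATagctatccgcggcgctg
Mcm6: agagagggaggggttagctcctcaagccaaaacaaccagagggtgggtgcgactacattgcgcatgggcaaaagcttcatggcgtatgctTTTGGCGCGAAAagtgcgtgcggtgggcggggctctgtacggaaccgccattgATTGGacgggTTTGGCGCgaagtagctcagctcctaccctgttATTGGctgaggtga
Cdk1 (chr10:69352913-69353112, minus strand), the kinase that starts mitosis, holds both CHR and E2F letters. Mki67 (chr7:135716380-135716579, minus strand), which coats mitotic chromosomes and is the usual marker of dividing cells, and Top2a (chr11:99024190-99024389, minus strand), the topoisomerase that untangles sister chromatids, hold CHR and CCAAT letters in several copies.
Cdk1: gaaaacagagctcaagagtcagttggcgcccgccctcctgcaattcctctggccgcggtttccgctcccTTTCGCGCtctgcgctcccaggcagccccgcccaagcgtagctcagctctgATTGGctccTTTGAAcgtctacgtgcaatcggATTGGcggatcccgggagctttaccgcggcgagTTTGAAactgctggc
Mki67: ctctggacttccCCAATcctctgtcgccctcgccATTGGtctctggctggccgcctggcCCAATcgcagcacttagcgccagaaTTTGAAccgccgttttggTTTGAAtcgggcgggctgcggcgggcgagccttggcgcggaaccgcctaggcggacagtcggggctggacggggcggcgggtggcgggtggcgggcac
Top2a: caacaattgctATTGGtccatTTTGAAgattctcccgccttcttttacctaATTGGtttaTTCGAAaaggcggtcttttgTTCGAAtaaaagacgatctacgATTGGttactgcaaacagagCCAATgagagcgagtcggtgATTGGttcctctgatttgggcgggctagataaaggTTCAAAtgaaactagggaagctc
Ccnb1 (chr13:100786487-100786686, minus strand), the cyclin partner of CDK1, holds CCAAT letters, but no E2F letters and no CHR letters in the spellings searched. Bub1 (chr2:127831860-127832059, minus strand), a kinase of the kinetochore checkpoint, holds CCAAT letters here and CHR letters 14 bases after the start, outside the printed stretch.
Ccnb1: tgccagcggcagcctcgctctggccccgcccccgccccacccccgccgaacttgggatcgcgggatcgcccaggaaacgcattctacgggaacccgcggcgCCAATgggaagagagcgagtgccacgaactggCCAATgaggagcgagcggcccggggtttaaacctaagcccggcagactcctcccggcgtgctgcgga
Bub1: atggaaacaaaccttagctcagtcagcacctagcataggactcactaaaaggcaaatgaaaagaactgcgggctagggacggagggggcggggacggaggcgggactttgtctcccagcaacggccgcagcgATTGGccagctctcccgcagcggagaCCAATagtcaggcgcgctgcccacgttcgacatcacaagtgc

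**Figure D1:**
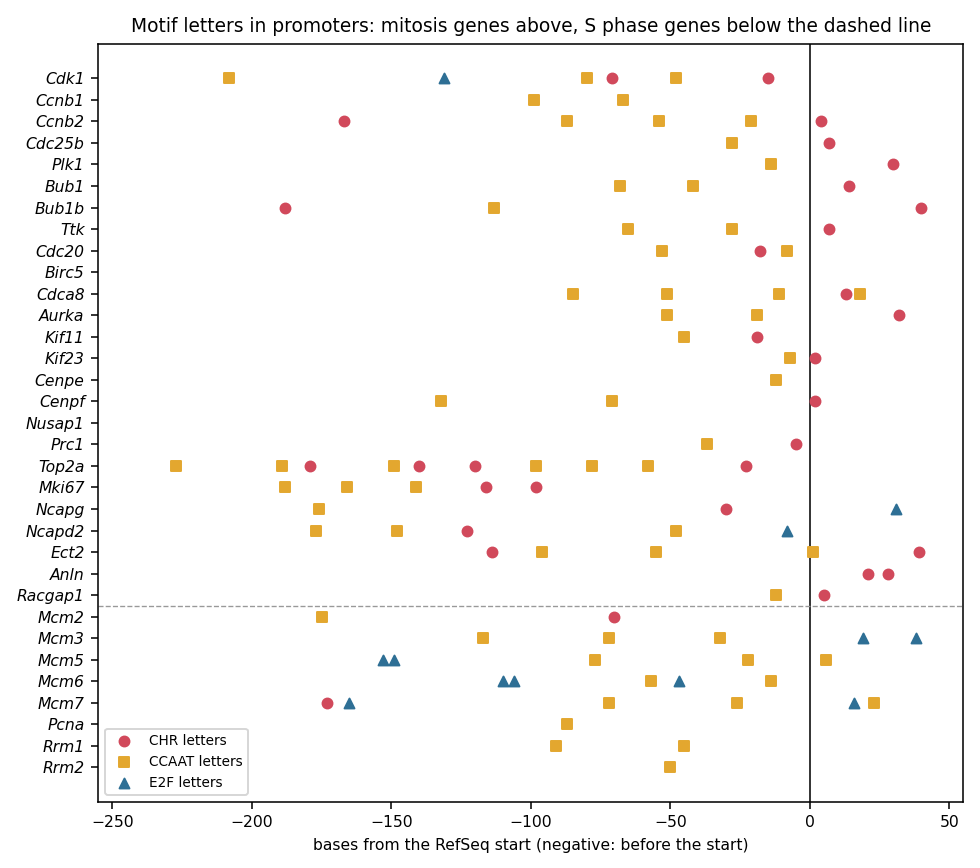
Positions of the CHR, CCAAT and E2F letters in bases from the RefSeq start (horizontal axis, negative before the start), 1 row per gene, with 25 mitosis genes above the dashed line and 8 S phase genes below it. The CHR letters of 19 mitosis genes stand between 60 bases before and 50 bases after the start, and rows without a mark (Birc5 and Nusap1) had no match.

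The ratios of mitosis genes with and without the CHR letters overlapped. The 21 with CHR letters had a median log2 ratio (KO over WT) of 1.33. The 4 without the CHR spellings searched (Ccnb1, Birc5, Cenpe and Nusap1) had 1.70. Among S phase genes, the 2 with CHR letters (Mcm2 and Mcm7) had a median of 0.20, and those without them had 0.57. Both letters together, CHR and CCAAT, stood in 20 of the 25 mitosis promoters, against 5.64% of all matched promoters.

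Every one of the 50 members had a higher mean in KO than in WT muscle, where 50.9% of all listed genes did, although Ccne2 turned to -0.041 in the limma log2 difference under quantile normalization. The test of the authors' deposited table (FDR under 0.05) was passed by 2 members. These were E2f1, a transcription factor of the G1/S switch, and Bub1. The background for that call was 1.01% of listed genes higher in KO and 2.71% in either direction. The other 48 members did not pass, and the lowest FDR among them in the authors' deposited table was 0.168, for Ccnb1. Before adjustment, 18 members had a p under 0.05 in the authors' deposited table, 13 of them mitosis genes and 1 of them an S phase gene (Mcm3), against 5.08% of listed genes higher in KO.

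A test on the separate libraries, limma on log2(normalized count + 1), called none of the 50 members (0), where 0.889% of the 14053 genes tested were called. The members' adjusted p-values in limma ran between 0.0754 for E2f1 and 0.963 for Rrm1. At an unadjusted p under 0.05, limma gave 34 members, all higher in KO, against 9.58% of genes tested that were higher and 19.6% in either direction. Of those 34, 26 were among the 29 mitosis genes and 2 among the 9 S phase genes. limma-voom gave 0 members after adjustment too. Without KO library 1, the median log2 ratio was 1.73 over the mitosis genes and 0.56 over the S phase genes. A limma fit without that library rests on 1 KO library that is assumed to vary like the WT libraries, so its calls are not read as results.

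The mitosis genes had larger ratios than the S phase genes. The median deposited log2 ratio was 1.41 over the 29 mitosis genes and 0.26 over the 9 S phase genes, beside 0.0062 over all listed genes. With Cdc6, Tyms and Tk1 counted as S phase, that median was 0.46. A log2 ratio of at least 1 was found in 27 of 29 mitosis genes, in 1 of 9 S phase genes (Rrm2) and in 3.4% of listed genes. Of the mitosis genes, 18 had ratios above that of Rrm2, while Aurka (0.27) and Ncapd2 (0.43) had the lowest. The members were picked for their known roles, with earlier results of these data known, and they share libraries. The comparison of mitosis with S phase genes is therefore a description with no test.

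**Figure D2:**
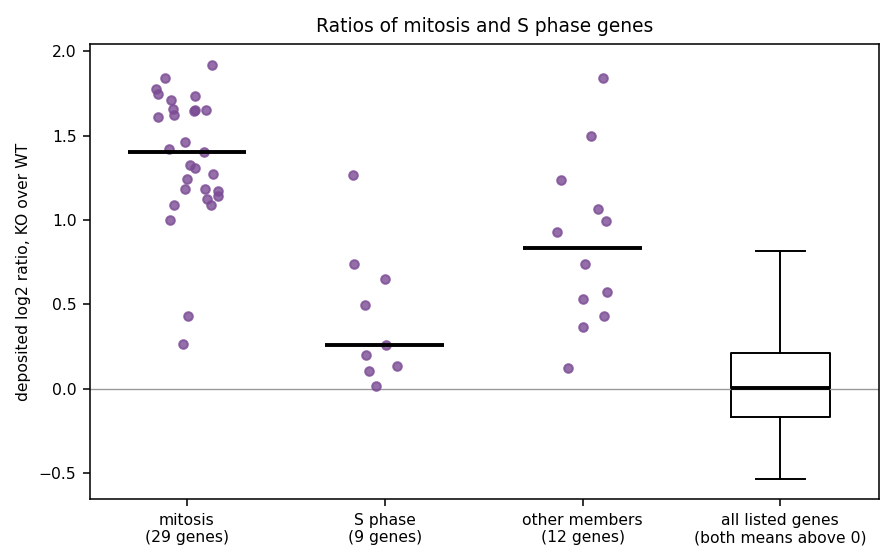
Deposited log2 ratio (KO over WT, vertical axis) of each member by group, 1 point per gene with a black bar at the median. Beside them is a box for all listed genes with both means above 0. The box spans the quartiles, the whiskers end at a low and a high percentile, and points beyond are not drawn. The mitosis points centre on 1.41 and the S phase points on 0.26.

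The S phase genes are given in full, the helicase subunits first. Mcm2, a helicase subunit, had 236 and 375 normalized counts in KO libraries 1 and 2, against 305 and 205 in WT libraries 1 and 2. Mcm4 had 308 and 323 in the KO libraries, against 321 and 264 in the WT libraries. Mcm7 had 355 and 466 in the KO libraries, against 381 and 366 in the WT libraries. For all 3 the genotypes overlapped, since KO library 1 lay below WT library 1. Mcm5 had 165 and 264 in the KO libraries, against 170 and 87.2 in the WT libraries. Mcm6 had 344 and 455 in the KO libraries, against 343 and 222 in the WT libraries. Mcm3 had 248 and 288 in the KO libraries, against 209 and 132 in the WT libraries. Mcm3 and Mcm6 were the helicase subunits whose KO libraries both lay above both WT libraries, although KO library 1 and WT library 1 were nearly level for Mcm6. For Mcm3 the log2 ratio was 0.65, and its FDR in the authors' deposited table was 0.352. The 6 subunits had a median log2 ratio of 0.38, and none passed either test (0 of 6 after adjustment).

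Pcna, the sliding clamp of the DNA polymerases, had 966 and 1256 normalized counts in the KO libraries, against 1032 and 899 in the WT libraries. Rrm1, the large subunit of ribonucleotide reductase, had 844 and 984 in the KO libraries, against 938 and 869 in the WT libraries. Both overlapped between genotypes. The small subunit Rrm2, whose supply limits the enzyme in dividing cells, had 172 and 313 in the KO libraries, against 119 and 82.9 in the WT libraries. Its groups did not overlap, its mean was 2.41-fold that of WT, and its FDR in the authors' deposited table was 0.454. Rrm1 and Rrm2 form a single enzyme, yet their log2 ratios were 0.02 and 1.27.

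Of the further S phase genes, none passed (0 by the FDR of the authors' deposited table). Tyms, which makes dTMP, had 148 and 174 normalized counts in the KO libraries, against 102 and 91.5 in the WT libraries, with no overlap and an FDR of 0.202 in the authors' deposited table. Tk1, the thymidine kinase of the salvage route, had a log2 ratio of 0.53. Cdc6, which loads the helicase on origins, had 42.7 and 106 in the KO libraries, against 64.8 and 45.7 in the WT libraries. For Cdc6 the lowest and the highest value were both KO libraries.

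Of the G1/S cyclins, cyclin A2 stood apart in size. Ccna2, which acts in S phase and on into mitosis, had 248 and 498 normalized counts in the KO libraries, against 137 and 71.2 in the WT libraries. Its groups did not overlap, with a mean of 373 ± 177 in KO and 104 ± 46.2 in WT (SD, n = 2 each). The FDR of Ccna2 in the authors' deposited table was 0.350. Ccnd1, the growth factor-driven cyclin D1, had 1730 and 2233 in the KO libraries, against 1666 and 997 in the WT libraries, and was the most abundant member by count. Ccne2, a cyclin E, had 97.2 and 155 in the KO libraries, against 123 and 108 in the WT libraries, with overlap. The remaining genes of the group, Ccne1 (cyclin E1), Cdk2 (the kinase of cyclins E and A) and Chek1 (the replication checkpoint kinase), had log2 ratios of 1.24, 0.37 and 0.99. None of the 6 passed (0 by the FDR of the authors' deposited table).

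Among the transcription factors, E2f1 had 161 and 209 normalized counts in the KO libraries, against 103 and 74.4 in the WT libraries. Both KO libraries lay above both WT libraries, and the mean was 185 ± 34.4 in KO and 88.6 ± 20 in WT (SD, n = 2 each), a 2.09-fold difference. The FDR of E2f1 was 0.0293 in the authors' deposited table, and limma gave a log2 difference of 1.06 ± 0.229 (SE) with an adjusted p of 0.0754. Foxm1, the activator of mitotic genes, had 146 and 264 in the KO libraries, against 84.8 and 60.6 in the WT libraries, with an FDR of 0.315 in the authors' deposited table. E2f8, a repressor of the E2F family, had 26.3 and 62.9 in the KO libraries, against 30.9 and 16 in the WT libraries, and overlapped.

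For mitotic entry, Ccnb1 had the largest log2 ratio of all members, 1.92. It had 107 and 190 normalized counts in the KO libraries, against 52.9 and 25.5 in the WT libraries, so that its groups did not overlap. Cdk1 had 192 and 333 in the KO libraries, against 107 and 60.6 in the WT libraries, with an FDR of 0.208 in the authors' deposited table. Cdc25b, a phosphatase that activates CDK1, had 184 and 308 in the KO libraries, against 124 and 122 in the WT libraries. The 2 WT libraries were nearly level for Cdc25b, whereas KO library 2 was 1.67-fold KO library 1. Ccnb2 (cyclin B2), Plk1 (polo-like kinase) and Cdc25c had log2 ratios of 1.41, 1.09 and 1.09. Cdc25c was the gene among these 6 whose groups overlapped.

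In the spindle checkpoint, Bub1 had 65.4 and 94.9 normalized counts in the KO libraries, against 32.9 and 13.8 in the WT libraries. Both KO libraries lay above both WT libraries, and the mean was 80.1 ± 20.9 in KO and 23.4 ± 13.5 in WT (SD, n = 2 each), a 3.43-fold difference. The FDR of Bub1 was 0.0360 in the authors' deposited table, and limma gave a log2 difference of 1.83 ± 0.434 (SE) with an adjusted p of 0.0931. Bub1b, which encodes the checkpoint protein BUBR1, had 124 and 209 in the KO libraries, against 98.7 and 54.2 in the WT libraries. Cdc20, the activator of the anaphase-promoting complex that the checkpoint holds back, and Ttk, the checkpoint kinase MPS1, had log2 ratios of 1.18 and 1.65. All 4 had KO libraries that lay above both WT libraries.

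The passenger complex takes part in chromosome alignment and cytokinesis. Cdca8, which encodes borealin, had 61.7 and 138 normalized counts in the KO libraries, against 42.9 and 18.1 in the WT libraries. Its partners Aurkb (Aurora B, the kinase of the complex) and Birc5 (survivin) had log2 ratios of 1.62 and 1.66. Incenp, the scaffold of the complex and not among the 50, had a log2 ratio of 0.85. Aurka, the spindle pole kinase Aurora A, had 87.2 and 142 in the KO libraries, against 110 and 80.8 in the WT libraries, with overlap and a log2 ratio of 0.27. Tpx2, which activates Aurora A on the spindle, had a log2 ratio of 1.24. The difference between Aurora A and its activator was not tested.

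The spindle and kinetochore genes all had log2 ratios above 1. Prc1, which bundles the microtubules of the midzone, had 192 and 388 normalized counts in the KO libraries, against 108 and 54.2 in the WT libraries. Kif20a, a kinesin of the midzone, had 132 and 226 in the KO libraries, against 110 and 52.1 in the WT libraries. These were the highest and the lowest ratio of 7 genes, 1.84 and 1.14 on the log2 scale. The others were Kif11 (the motor that pushes spindle poles apart), Kif23 (a centralspindlin motor), Cenpe and Cenpf (kinetochore proteins) and Nusap1 (a microtubule bundler). All 7 had the KO libraries above both WT libraries, and none passed (0 by the FDR of the authors' deposited table).

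Mki67 had 648 and 1225 normalized counts in the KO libraries, against 389 and 170 in the WT libraries. Its mean was 937 ± 408 in KO and 280 ± 155 in WT (SD, n = 2 each), a 3.35-fold difference with an FDR of 0.331 in the authors' deposited table. Top2a had 366 and 674 in the KO libraries, against 222 and 111 in the WT libraries, a 3.12-fold difference. For both genes KO library 2 had the most and WT library 2 the least, and the groups did not overlap. The condensin I subunits, which compact mitotic chromosomes, differed from each other in ratio. Ncapg had a log2 ratio of 1.61. Ncapd2 had 538 and 744 in the KO libraries, against 481 and 471 in the WT libraries, a log2 ratio of 0.43.

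The cytokinesis genes act at the cleavage furrow and the midzone. Ect2, which activates RhoA at the cleavage furrow, had 106 and 202 normalized counts in the KO libraries, against 74.8 and 37.2 in the WT libraries. Anln, the furrow scaffold anillin, had 197 and 292 in the KO libraries, against 139 and 63.8 in the WT libraries. Racgap1, the centralspindlin partner of ECT2, had a log2 ratio of 1.31. None of the 3 overlapped between genotypes, and none passed (0 by the FDR of the authors' deposited table). Median log2 ratios by role were 1.25 for entry, 1.42 for checkpoint and exit, 1.62 for the passenger complex with Aurora A, 1.33 for spindle and kinetochore, 1.63 for chromosome structure and 1.31 for cytokinesis.

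**Figure D3:**
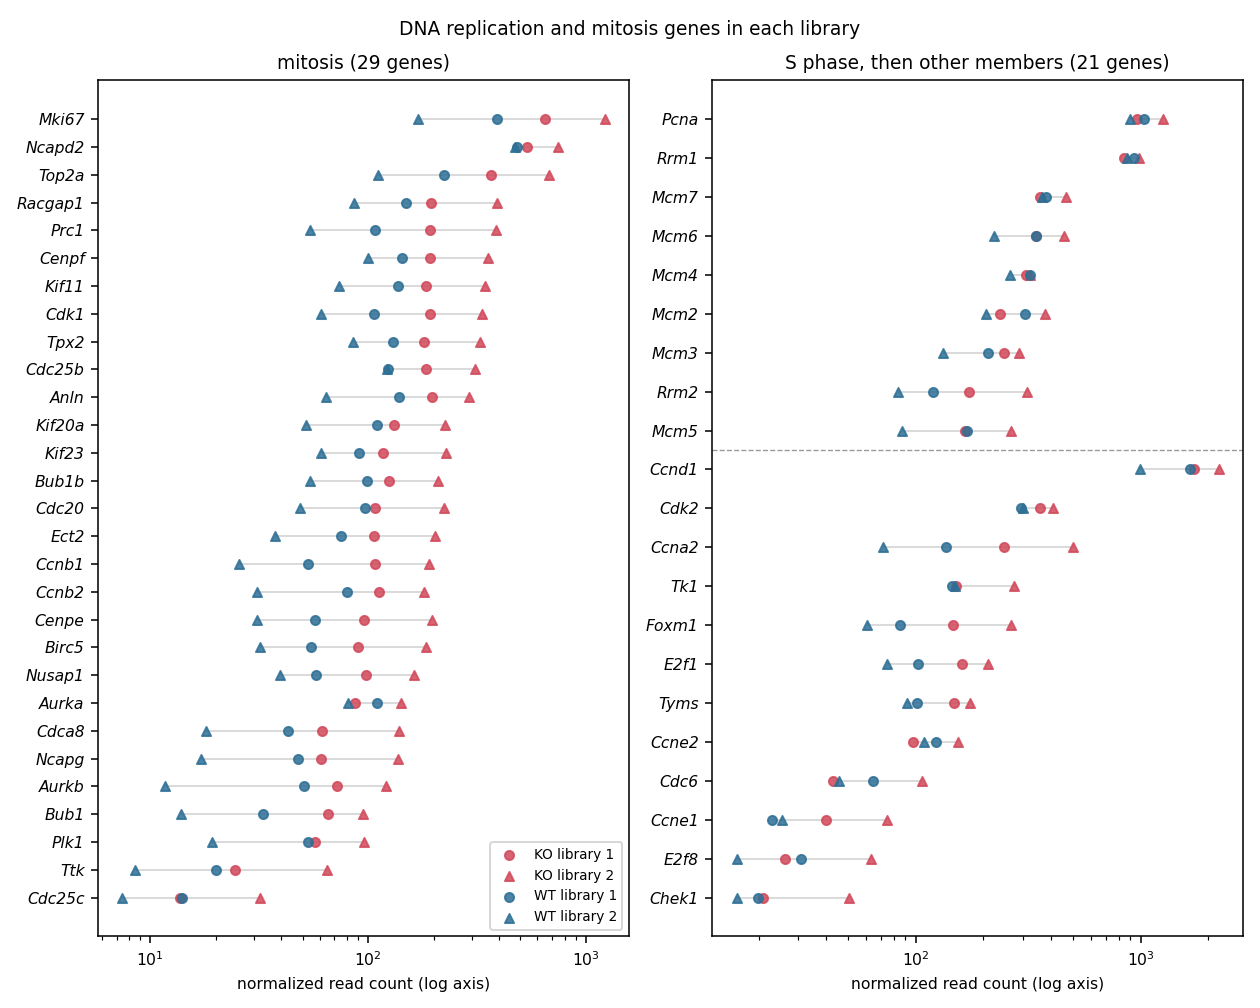
Normalized read count of each member in each library (horizontal log axis), with 29 mitosis genes on the left and, on the right, 9 S phase genes above the dashed line and 12 other members below it. Red marks are KO and blue marks WT libraries (circles, library 1; triangles, library 2). The marks of 27 mitosis genes run in the order KO library 2, KO library 1, WT library 1, WT library 2 from high to low.

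The libraries of a genotype differed among themselves in these genes as well as between genotypes. KO library 2 lay above KO library 1 in all 50 members, against 49% of listed genes, and WT library 1 lay above WT library 2 in 47 members, against 50.7%. The full order KO library 2, KO library 1, WT library 1, WT library 2 held in 36 of 50 members, 27 of 29 mitosis genes and 3 of 9 S phase genes, against 6.18% of listed genes. Both KO libraries lay above both WT libraries in 39 of 50 members, against 25.8%, with 27 of the 29 mitosis genes and 3 of the 9 S phase genes (Mcm3, Mcm6 and Rrm2). The other 11 members overlapped, and no member (0) had both KO libraries below both WT libraries. With 2 libraries against 2, an exact permutation test of a single gene cannot go below a two-sided p of 0.333.

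The size of that spread was taken for the mitosis genes. Relative to the WT mean of each gene, on the log2(count + 1) scale, their medians were 0.89 and 1.72 in the KO libraries (1, then 2), against 0.40 and -0.56 in the WT libraries. The median log2 difference between KO library 1 and WT library 1 was 0.49, smaller than that between the KO libraries (0.88) and that between the WT libraries (0.97). For the S phase genes the 4 medians were 0.074 and 0.55 in the KO libraries, against 0.23 and -0.28 in the WT libraries. The median between KO library 1 and WT library 1 was -0.061 for S phase genes. Summed over the 29 mitosis genes, the normalized counts were 4604 and 8203 in the KO libraries, against 3272 and 1985 in the WT libraries. Over the 9 S phase genes they were 3638 and 4724 in the KO libraries, against 3819 and 3126 in the WT libraries.

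**Figure D4:**
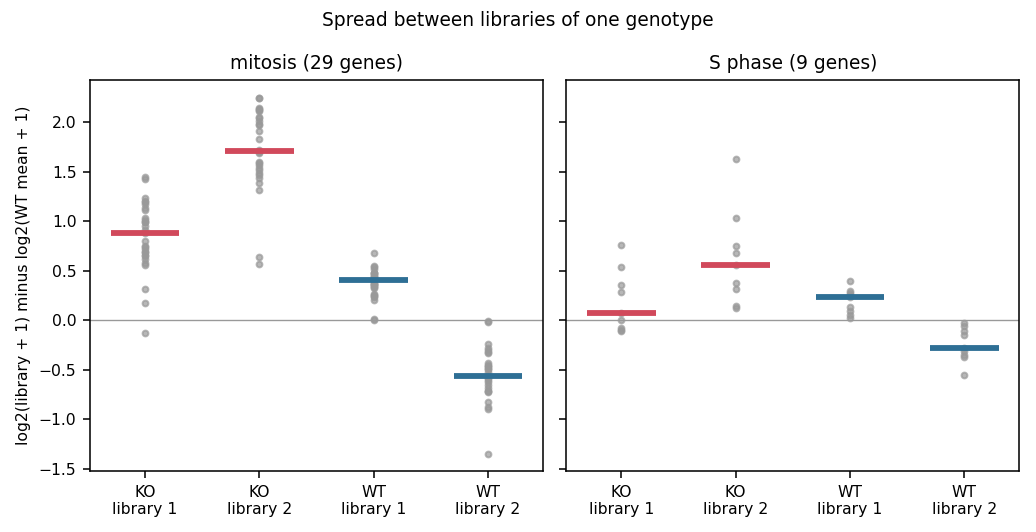
Log2 of each library's normalized count + 1 minus log2 of the WT mean + 1 (vertical axis), 1 grey point per gene and a bar at the median, for 29 mitosis genes (left) and 9 S phase genes (right). The mitosis medians step between libraries of the same genotype, 0.89 and 1.72 in KO and 0.40 and -0.56 in WT.

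Leaving out KO library 2 lowered the median log2 ratio of the mitosis genes to 0.91. Leaving out the other libraries in turn gave 0.97 to 2.0. For the S phase genes it was 0.074 without KO library 2 and 0.11 without WT library 2. It was 0.56 without KO library 1 and 0.57 without WT library 1. The mitosis median stayed above the S phase median in each case.

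Counts of the mitosis genes were lower than those of the S phase genes. The median over genes of the mean normalized count was 119 for mitosis genes and 304 for S phase genes. A mean under 100 was found in 15 members, 11 of them mitosis genes and none of them (0) S phase genes by the rule, and a mean under 50 in 5 members. All 50 passed the limit of 10 used for limma. The 3 lowest were Cdc25c, Chek1 and Ttk. Cdc25c had 13.6 and 32.0 in the KO libraries, against 14.0 and 7.44 in the WT libraries. Chek1 had 20.9 and 50.5 in the KO libraries, against 19.9 and 16 in the WT libraries. Ttk had 24.5 and 65.0 in the KO libraries, against 19.9 and 8.51 in the WT libraries. KO library 1 was within 1.23-fold of WT library 1 for all 3 genes, and the Cdc25c groups overlapped.

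Per kilobase of exon, which allows levels of different genes to be compared, Pcna was the highest member, with a mean of 463 normalized counts per kb in KO and 402 in WT. Ccnd1 followed with 421 per kb in KO and 283 in WT. By KO level, the highest mitosis genes were Ncapd2 (102 per kb in KO and 75.9 in WT), Ccnb2 (95.7 in KO and 36.1 in WT) and Mki67 (93.1 in KO and 27.8 in WT), and Cdc25c (4.63 in KO and 2.18 in WT) was the lowest. The loci of 7 members (Ccna2, Ccne2, Cdc20, Kif20a, Ncapg, Nusap1 and Tk1) overlap another listed gene. How far the exons overlap was not measured, and the sources used here do not say whether counting used strand. Reads from a stretch shared with a neighbour could therefore belong to either gene. Ccnb1, Ccnb2, Pcna and Tyms have named pseudogenes that could take or give reads, and their values are uncertain to that extent.

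**Figure D5:**
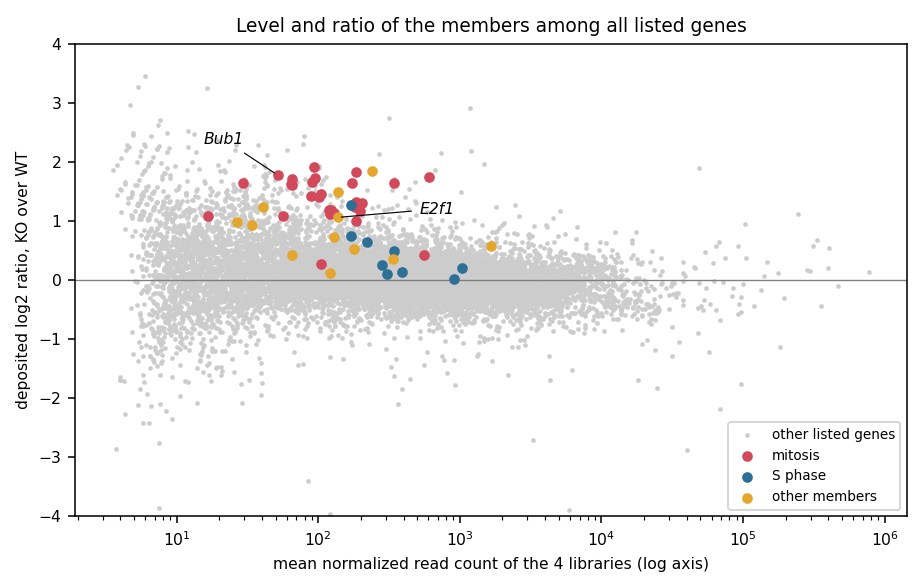
Deposited log2 ratio (KO over WT, vertical axis) against the mean normalized read count of the 4 libraries (horizontal log axis) for all listed genes (grey) and the members (coloured by group). Genes beyond the ends of the vertical axis are not drawn. The named genes E2f1 and Bub1 are the 2 members past the FDR of the authors' deposited table, while Mki67 and Top2a have higher means than both, with ratios of 1.74 and 1.64.

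Genes of the same pathways outside the 50 were counted by list. Among 45 other kinetochore, spindle and mitotic genes, 3 passed the FDR of the authors' deposited table, all higher in KO, and the median log2 ratio was 1.26, with a range of -0.36 (Pttg1) to 2.44. The genes that passed were Kif2c (a microtubule-depolymerizing kinesin), Dlgap5 (a spindle assembly factor) and Cks1b (a CDK subunit). Kif2c had 53.6 and 77.3 normalized counts in the KO libraries, against 19.9 and 13.8 in the WT libraries. Dlgap5 had 56.3 and 72.2 in the KO libraries, against 25.9 and 12.8 in the WT libraries. Cks1b had 192 and 231 in the KO libraries, against 133 and 99.96 in the WT libraries. These 3 rose with groups that did not overlap. Among 42 further genes of the replication machinery none passed (0), and the median log2 ratio was 0.17, with a range of -0.44 to 1.82 (Mcm10). The ranges of both lists overlap, and their difference was not tested.

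Lists of regulators and of other chromosome genes were counted in the same way. Among 15 G1 cyclins, pocket proteins and E2F factors, 1 passed the FDR of the authors' deposited table. This was E2f2, an activator of the E2F family, with 322 and 442 normalized counts in the KO libraries, against 168 and 198 in the WT libraries. The median log2 ratio of that list was 0.18. None passed (0) among 7 genes of the MuvB core and the MYB factors, with a median of 0.072. Within that list Mybl2, the gene of B-MYB, had 39.0 and 66.0 in the KO libraries, against 31.9 and 12.8 in the WT libraries, a log2 ratio of 1.23. Its relative Mybl1 had a log2 ratio of 1.01, and the 5 core genes had -0.21 to 0.17. None passed (0) among 11 other condensin and cohesin subunits, with a median of 0.048. Of these, the condensin genes Smc2, Smc4, Ncaph and Ncapg2 had log2 ratios of 0.93, 0.57, 0.60 and 0.98. They ran in the full library order of the mitosis genes. The other 7 had -0.22 to 0.049. Among those 7, the condensin genes Ncapd3 (-0.22) and Ncaph2 (0.049) did not run in that order. None passed (0) among 7 CDK inhibitors (median 0.15), 14 genes of the anaphase-promoting complex (-0.011) and 13 recombination genes (0.69, with a highest ratio of 2.0 for Rad54b). No gene of these lists (0) was called lower.

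The markers of muscle cell types were read beside these values. Of 10 satellite cell markers none (0) passed the FDR of the authors' deposited table, and their summed normalized counts were 5078 and 6504 in the KO libraries, against 6854 and 6005 in the WT libraries. Most of these counts were Itga7 and Sdc4. KO library 2 lay above KO library 1 in 9 of the 10, with a median log2 difference of 1.15, while WT library 1 lay above WT library 2 in 4 of them. Pax7, the factor that defines satellite cells, had 52.7 and 212 in the KO libraries, against 178 and 203 in the WT libraries. Of 7 markers of differentiating myoblasts and new fibres, 2 (Myl4 and Actc1) were called higher, and 3 (Myod1, Myog and Tmem8c) followed the library order of the mitosis genes. Myh8, the perinatal myosin, did not pass and had both KO libraries below both WT libraries, with 165 and 114 in the KO libraries, against 901 and 295 in the WT libraries, and the embryonic myosin Myh3 overlapped between genotypes. Myog, the factor of myoblast differentiation, had 466 and 1146 in the KO libraries, against 404 and 317 in the WT libraries. Myod1 had 558 and 732 in the KO libraries, against 466 and 422 in the WT libraries. The list's sums, mostly Actc1, were 66094 and 93207 in the KO libraries, against 17784 and 27145 in the WT libraries. The part of these cells in the mitosis values was not tested.

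The markers of other cell types gave other orders of the libraries. Macrophage markers (9 listed) summed to 15778 and 12308 normalized counts in the KO libraries, against 14666 and 9467 in the WT libraries, and none passed (0 by the FDR of the authors' deposited table). Fibro-adipogenic progenitor markers (8 listed, with Dpt and Clec3b called higher) summed to 95125 and 67493 in the KO libraries, against 82694 and 69328 in the WT libraries. Endothelial markers (8 listed, with Kdr called lower) summed to 34619 and 34069 in the KO libraries, against 41400 and 41230 in the WT libraries. Schwann cell markers (8 listed, none called) summed to 24521 and 11872 in the KO libraries, against 8435 and 8907 in the WT libraries. In these lists no gene (0) ran in the order KO library 2, KO library 1, WT library 1, WT library 2. T and NK cell markers (5 listed of 8) summed to 260 and 325 in the KO libraries, against 247 and 298 in the WT libraries. Most of these counts were Cd247, the 1 gene of that list with a log2 ratio above 0 (0.30). The median log2 ratio of the T and NK cell list was -0.425. B cell markers (4 listed of 8) summed to 98.1 and 99.0 in the KO libraries, against 141 and 158 in the WT libraries. Among tenocyte markers (6 listed) Kera was called higher, and among adipocyte (6 listed), bone and osteoclast (10 listed), erythroid (3 listed of 13) and granulocyte markers (3 listed of 10) none passed (0 by the FDR of the authors' deposited table). The part of any of these cell types in the members' values was not tested.

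The authors' deposited table of upstream regulators, made with the Ingenuity program from genes past an absolute log ratio in the same means, lists 608 regulators, and 226 of them have at least 1 member among their targets. In all, 33 of the 50 members were a target of some regulator. FOXM1 had an activation score of 3.92 in the authors' deposited table, and 15 of its 18 targets were members (83.3%). E2F1 had a score of 1.71 in the authors' deposited table, with 16 members among 30 targets. CDKN1A, the CDK inhibitor p21, had a score of -3.44 in the authors' deposited table, with 11 members among 17 targets. These 3 were named after their values were seen. The scores were computed from the members' own ratios, so they add no separate measurement.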

How the data were processed

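RNA of tibialis anterior muscle was extracted with Trizol and sequenced as Illumina libraries, per the labels' protocols. The submitters' processing notes name the build mm10. The sources used here do not name an aligner, a counting program or an annotation. For each gene the authors deposited mean signals (normalized read counts) of both genotypes, their log2 ratio, and the p-value with its FDR, from DESeq by the table's name. The authors also deposited upstream regulator tables with an activation score and a p-value of overlap, per the file headers. Of the gene table, 1 line was not analysed here.

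The means were split into whole multiples of 2 steps per genotype (tolerance 1e-13 of the value), found from the 300 lowest values of each column. All 14617 genes had exactly 1 solution, so 2 libraries per genotype entered the means, although the labels name 3 mice. limma 3.58.1 (R 4.3.3) was fitted to log2(normalized count + 1) over the 14053 genes whose mean reached 10, KO minus WT, two-sided, with trend and robust moderation, Benjamini-Hochberg adjustment and 2 residual degrees of freedom. Both steps were tested on simulated data. The counts simulated for limma had the same dispersion for every gene and no spread shared between genes. They cannot show how limma behaves for the members, which moved together between libraries of a genotype. The pseudocount pulls ratios of low genes towards 0. Depth of 22629288 to 24814798 counts limits precision for the lowest members.

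Named members were those past either test, the 9 S phase genes, the highest and the lowest ratio in every role list, the usual proliferation markers and the 3 lowest means. Others are given by ratio. Pathway genes were named if past the FDR. Some that were not past it, such as Incenp, Mybl2, Smc2 and Mcm10, were named too, with their values known. Members, lists and tests were chosen with earlier results of these data known. Exon lengths came from GENCODE vM21. Promoters came from RefSeq (GRCm38.p6) and were used where the RefSeq start lay within 100 bases of the annotated gene start. Alternatives were the pseudocount, the filter, the scaling, quantile normalization, moderation, limma-voom, autosomal genes alone, and each library left out.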

Additional observations from a re-analysis of the deposited data

How the results depend on the processing

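The count of members past the test was 2 by the FDR of the authors' deposited table and 0 with limma in its place. limma's count of 0 held under every pseudocount, filter and scaling run, with limma-voom and with autosomal genes alone. Fits with 1 library left out have 1 library in a genotype and are read by effect size alone. The mitosis median log2 ratio of 1.41 ran between 0.91 and 2.0 on leaving out 1 library, and the S phase median of 0.26 between 0.074 and 0.57; the cause was not tested. Of 745 alternatives for single members, 728 kept their direction and side of the threshold. In 7 members 11 alternatives turned round, and none of these members was past a test in the main comparison. The other 6 newly passed the threshold, all in the limma fit without KO library 1. That fit rests on 1 KO library, so these 6 are not read as calls. Ccne2 was -0.041 under quantile normalization. With 1 library left out, the limma log2 difference ran between -0.25 and 0.42 for Ccne2, -0.34 and 0.95 for Cdc6, -0.11 and 0.59 for Aurka, -0.084 and 0.58 for Mcm2, -0.027 and 0.26 for Mcm4, -0.072 and 0.32 for Mcm7, and -0.097 and 0.12 for Rrm1. Scaling by total counts without the 20 most abundant genes shifted the median of all genes by 0.11, and the mitosis and S phase medians were then 1.52 and 0.37. No paired analysis was possible because the deposited columns carry no replicate numbers. With 2 libraries per genotype, an Xist signal that follows genotype, Y-linked transcripts in KO library 2 alone and low counts in 15 members, precision is limited.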
